A study of Mus musculus with 2 samples.

Results

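The 10 genes described here are epithelial and mesenchymal genes measured in mouse embryonic stem (ES) cells that lack Dgcr8, out of 43629 genes in the deposited count tables. They were chosen by name and found by the Ensembl identifiers that GENCODE release M21 pairs with those names, and all 10 had a row in both libraries. The 4 epithelial genes are Cdh1, Epcam, Esrp1 and Esrp2, and the 6 mesenchymal genes are Cdh2, Vim, Zeb1, Zeb2, Snai1 and Snai2. The series holds 1 group of 2 libraries, replicates A and B, of polyadenylated RNA from ES cells of a 129/Ola background at passage 7, labelled Dgcr8 knockout and made with paired CRISPR/Cas9 cuts. Dgcr8 is the RNA-binding partner of Drosha in the complex that cuts primary microRNA transcripts. The titles also carry the codes KO2 and d5, which the labels do not explain, and whether A and B came from separate cultures or clones is not stated. No wild-type library was analysed here, so the values are levels in these cells and not effects of the knockout.

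Cells of an epithelium hold together through E-cadherin, the product of Cdh1, whose tail binds beta-catenin, and through junctions built around it. In the epithelial-mesenchymal transition the transcription factors of the Snail family (Snai1, Snai2) and the Zeb family (Zeb1, Zeb2) repress Cdh1 and other epithelial genes, and cells take up mesenchymal genes such as Cdh2 (N-cadherin) and Vim (vimentin). The microRNAs of the miR-200 family bind the 3′ untranslated regions (3′UTRs) of Zeb1 and Zeb2 mRNA, and Zeb proteins repress the miR-200 genes in turn. ES cells grow as compact colonies held by E-cadherin. The maturation of miR-200 microRNAs needs Dgcr8.

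The mature miR-200 sequences are shown because their seeds, bases 2 to 8 from the 5′ end, decide which mRNAs they can pair with. They are RefSeq sequences (GRCm38.p6), written 5′ to 3′ with the seed in capitals, and fall into a group of 3 with the seed AAUACUG and a group of 2 with the seed AACACUG.
mmu-miR-200b-3p: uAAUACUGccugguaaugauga
mmu-miR-200c-3p: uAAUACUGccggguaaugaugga
mmu-miR-429-3p: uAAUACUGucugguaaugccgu
mmu-miR-200a-3p: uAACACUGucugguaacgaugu
mmu-miR-141-3p: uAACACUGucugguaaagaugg
The hairpin genes of miR-200a, miR-200b and miR-429 lie on chromosome 4 and those of miR-200c and miR-141 on chromosome 6. Mir200a had 2 counts in A and 5 in B, and Mir200b had 1 in A and 5 in B. Mir429, Mir200c, Mir141 and the separately seeded Mir205, which also pairs with Zeb mRNA, had 0 in both, a floor of 3 counts, or 0.108 CPM for A and 0.0989 CPM for B. Of these 6 genes, 0 reached 1 CPM in both libraries, where CPM is counts per 1000000 counts of the library. These counts measure reads inside the short hairpins and not mature microRNAs.

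Both Zeb genes carry many matches to these seeds. The matches searched were CAGTATT (for AAUACUG) and CAGTGTT (for AACACUG) on the mRNA strand, in the longest annotated 3′UTR of each gene. The 3′UTR of Zeb2 (4941 bases) held 5 of CAGTATT and 4 of CAGTGTT, 9 in all, and that of Zeb1 (2401 bases) also held 5 and 4. In 8 of the 9 cases in Zeb2, and in 5 of the 9 in Zeb1, the match lay within 1100 bases of the stop codon. Snai2 had 1 match of each kind in 1089 bases, and Snai1 had 1 CAGTATT in 731 bases. The other 6 genes (Cdh1, Epcam, Esrp1, Esrp2, Vim and Cdh2) had 0. Of 20689 mouse 3′UTRs searched in the same way, 13.3% held CAGTATT, 17.3% held CAGTGTT and 25.8% held either. Among 3′UTRs of like length (within a factor of 1.2), 67.4% of 875 held a match at the length of Zeb2 and 47.0% of 2342 at that of Zeb1. In each of these length classes 1 gene, Zeb2 or Zeb1 itself, had as many as 9. A match describes the letters in the mRNA and does not show binding.

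Below are the 6 Zeb2 matches that an A follows, opposite base 1 of the microRNA, as examples. All 9 match a seed over its 7 bases. Each is written 5′ to 3′ on the mRNA strand (minus strand of GRCm38) with 8 bases on either side, the match is in capitals, and the coordinates are those of the match.
Zeb2, chr2:44988358-44988364: attttgtaCAGTGTTaaggccta
Zeb2, chr2:44988109-44988115: cagtgcatCAGTATTacgattcc
Zeb2, chr2:44987785-44987791: accagcttCAGTGTTaagctcac
Zeb2, chr2:44987747-44987753: acccgtgtCAGTATTagacgact
Zeb2, chr2:44987662-44987668: aattttgtCAGTATTacaccaaa
Zeb2, chr2:44987528-44987534: gtagtgtaCAGTATTatagttct

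**Figure D1:**
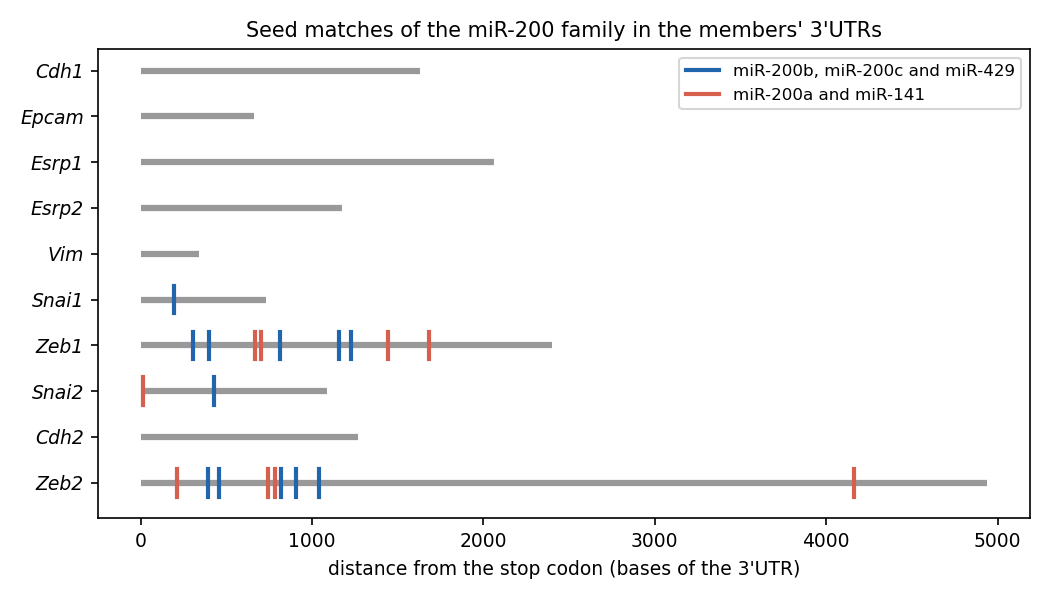
Positions of miR-200 seed matches along the longest annotated 3′UTR of each of the 10 genes (grey bars; x axis, distance from the stop codon in bases), coloured by seed group. Zeb1 and Zeb2 have 9 matches each, Snai2 has 2, Snai1 has 1, and the other 6 genes have none.

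The libraries held 27872396 counts (A) and 30327146 counts (B). Dgcr8 itself had 1253 counts (45.0 CPM) in A and 1942 (64.0 CPM) in B, and counts per gene do not tell whether reads come from the edited part, so they do not check the genotype. All 8 ES cell markers reached 1 CPM in both libraries. Among them Pou5f1, the gene of Oct4, stood at 803 and 686 RPKM in A and B, Zfp42 (Rex1) at 355 and 345, and Dppa5a at 6869 and 2855. RPKM is CPM per 1000 bases of exon, with the exons of all transcripts of a gene merged, and is the scale on which genes are compared with each other here. The 10 fibroblast markers, which feeder cells would carry, summed to 49.7 CPM in A and 31.4 in B, with Lum and Postn at 0 counts in both and Dcn at 0 and 2. In that list Thy1, Pdgfrb and Acta2 led with 8.90, 1.30 and 1.03 RPKM on average, and Col1a2 and Col3a1 stayed under 1 CPM. The 8 extraembryonic endoderm markers summed to 81.0 CPM in A and 235 in B, led by Lama1, Col4a1 and Gata4 (9.78, 5.21 and 1.54 RPKM), with Sox17 under 1 CPM. The 6 trophoblast markers summed to 91.0 CPM in A and 38.5 in B, led by Tfap2c, Krt7 and Hand1 (15.0, 0.915 and 0.748 RPKM), with Elf5 and Gata3 under 1 CPM. In bulk RNA, few cells with much of a transcript and many cells with little of it cannot be told apart.

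Cdh1 and Epcam stood far above the mesenchymal genes other than Vim, while Esrp1 and Esrp2 lay closer to Snai1 and Zeb1. The median level of the 4 epithelial genes was 33.8 RPKM in A and 34.1 in B, and that of the 6 mesenchymal genes was 0.653 in A and 0.773 in B. On the scale of log2(RPKM + 0.1) a median averages the logs of the 2 middle genes, so it is not the log of the RPKM median. There the medians were 4.06 in A and 4.11 in B for epithelial genes, and -0.814 and -0.525 for mesenchymal genes. The difference of medians on this scale was 4.87 in A and 4.64 in B. All protein-coding genes had a median of 0.979 RPKM in A and 0.780 in B. In both libraries 5 of the 6 mesenchymal genes lay below the lowest epithelial gene, Esrp2. The genes are not replicates, so no test was made over them. With the wider lists described further on added (45 epithelial and 38 mesenchymal genes), the difference was smaller, at 2.66 in A and 2.19 in B. Of the 10 genes 7 reached 1 CPM in both libraries, as did 55.6% of protein-coding genes and 30.6% of all genes in the tables.

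**Figure D2:**
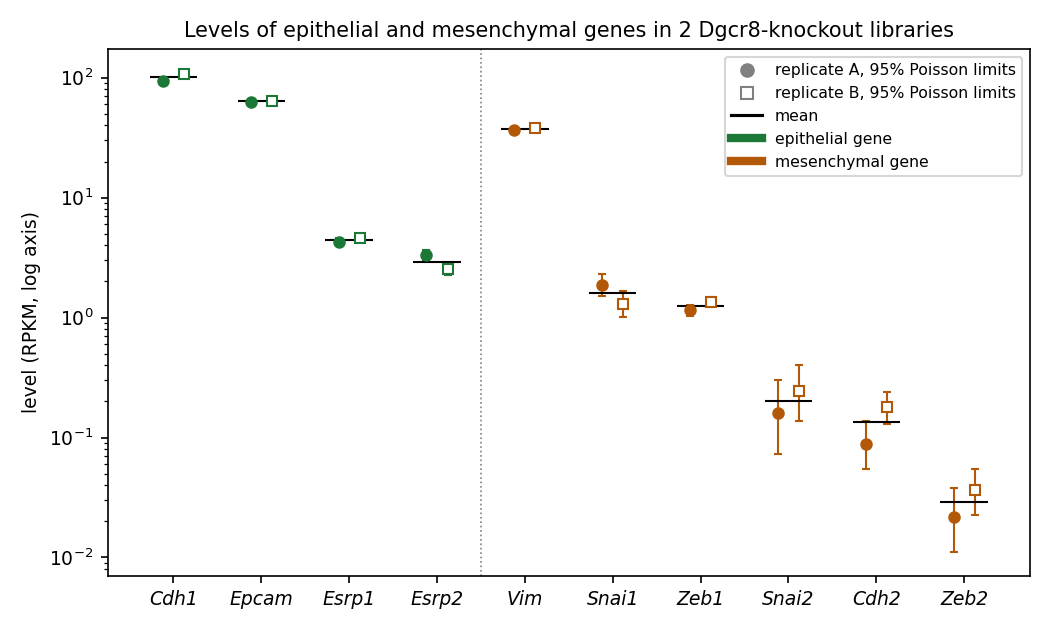
Levels of the 4 epithelial and 6 mesenchymal genes in RPKM (log axis), with replicate A (filled) and B (open), exact 95% Poisson limits as bars and the mean as a black line. Cdh1 and Epcam lie above all mesenchymal genes, Vim lies at 36.8 and 38.0 RPKM, and Zeb2 lies lowest at 0.0216 and 0.0364 RPKM.

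Cdh1 (ENSMUSG00000000303, GRCm38 chromosome 8, 106603351 to 106670246, plus strand) was the highest of the 10 genes. It had 11982 counts in A and 14902 in B, or 94.0 and 107 RPKM, with a mean of 101 ± 9.51 (SD, n = 2). This placed it at percentile 98.2 of protein-coding genes by mean RPKM. Epcam (ENSMUSG00000045394, chromosome 17, 87635979 to 87651129, plus strand), which encodes an adhesion protein of epithelia and ES cells, had 3874 and 4228 counts. Its levels of 63.3 RPKM in A and 63.5 in B nearly coincided (mean 63.4 ± 0.136, percentile 96.6). Even the lower of the Cdh1 values lay above both Epcam values.

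Esrp1 and Esrp2 encode the splicing regulators that set the epithelial isoforms of many mRNAs, and both were present at modest levels. Esrp1 (ENSMUSG00000040728, chromosome 4, 11331933 to 11386783, minus strand) had 754 counts in A and 882 in B, or 4.29 and 4.61 RPKM (4.45 ± 0.228, percentile 67.1). Esrp2 (ENSMUSG00000084128, chromosome 8, 106130319 to 106136974, minus strand) had 400 and 336 counts, or 3.31 and 2.55 RPKM (2.93 ± 0.533, percentile 61.5). The 2 genes did not overlap. Esrp1 exceeded Esrp2 by 1.30-fold in A (95% limits for counting error 1.15 to 1.47) and 1.81-fold in B (1.59 to 2.05). Esrp2 shares 219 exonic bases with Nfatc3 on the opposite strand (1834 and 2561 counts), and since the strand setting of the counting is not stated, its level is uncertain. Splice isoforms, on which these proteins act, cannot be read from counts per gene.

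Vim (ENSMUSG00000026728, chromosome 2, 13573927 to 13582826, plus strand), the gene of the mesenchymal intermediate filament vimentin, was high. It had 4868 counts in A and 5463 in B, or 36.8 and 38.0 RPKM (37.4 ± 0.817, percentile 93.6), next in the order after Cdh1 and Epcam. Epcam exceeded Vim 1.72-fold in A (1.65 to 1.79) and 1.67-fold in B (1.61 to 1.74). With the length of the longest transcript in place of all merged exons, the mean level of Vim was 60.6 RPKM and the ratio narrowed to 1.14 in A and 1.11 in B. In CPM, without length, Vim had 175 in A and 180 in B and lay above Epcam, at 139 in both. The order of Epcam and Vim thus depends on the scaling by length. Feeder fibroblasts express Vim too, and 5 of the 10 fibroblast markers reached 1 CPM in both libraries. Of these, Thy1 had 876 counts in A and 664 in B, Pdgfrb had 297 and 109, and the collagen gene Col1a1 had 81 and 37. The collagen genes Col1a2 and Col3a1 had 2 and 1 counts in A and 7 and 5 in B. The part of such cells in the level of Vim was not tested.

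Cdh2 (ENSMUSG00000024304, chromosome 18, 16588877 to 16809246, minus strand) was low. It had 20 counts in A and 44 in B, or 0.0890 RPKM (95% Poisson limits 0.0543 to 0.137) and 0.180 RPKM (0.131 to 0.241), with a mean of 0.134 ± 0.0643. Cdh1 exceeded Cdh2 1056-fold in A (684 to 1730) and 597-fold in B (445 to 822). By the longest transcript these ratios were 655 and 370, so their size depends on the library and on the length used while the order of the genes does not.

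The other cadherin genes were mostly under 1 CPM. Of 20 cadherin genes besides Cdh1 and Cdh2, 3 passed 1 CPM in each library, and the median over the list was 0.0720 RPKM in A and 0.0750 in B. Cdh3, the gene of P-cadherin, an epithelial cadherin, came second to Cdh1 with 8.13 RPKM in A and 5.48 in B. Cdh24 followed with 1.09 and 1.13 RPKM and Cdh4 (R-cadherin) with 0.366 and 0.645. The endothelial Cdh5 had 15 and 12 counts, and Cdh6 had 3 and 29. Cdh16 and Cdh19 had 0 counts in both libraries, and the mesenchymal Cdh11 had 2 and 0.

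**Figure D3:**
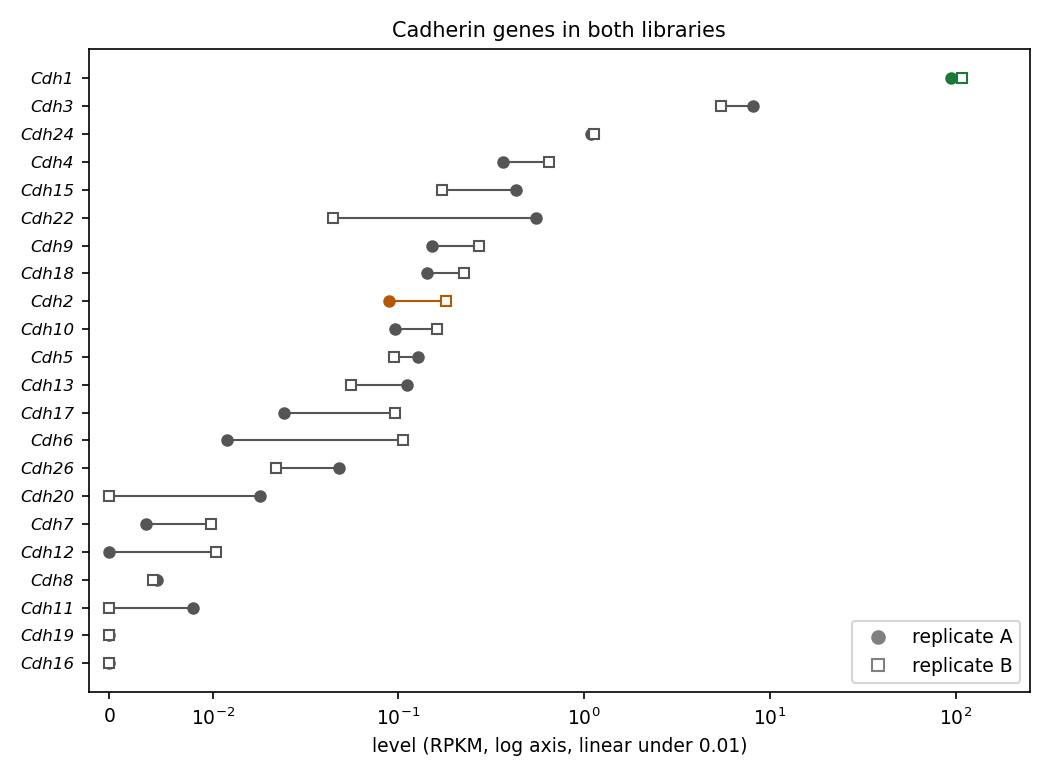
Levels of 22 cadherin genes in replicates A (filled) and B (open) in RPKM (x axis, log scale, linear under 0.01), ordered by mean. Cdh1 stands apart at 94.0 and 107 RPKM, Cdh3 follows at 8.13 and 5.48, and Cdh2 lies among the genes near 0.1.

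Zeb1 was present while Zeb2 had few counts, and both mRNAs carry 9 seed matches, as given above. Zeb1 (ENSMUSG00000024238, chromosome 18, 5591860 to 5775467, plus strand) had 328 counts in A and 422 in B, or 1.15 and 1.36 RPKM (1.25 ± 0.148, percentile 52.5 of protein-coding genes). Zeb2 (ENSMUSG00000026872, chromosome 2, 44983632 to 45117395, minus strand) had 12 and 22 counts, or 0.0216 RPKM (0.0112 to 0.0377) and 0.0364 RPKM (0.0228 to 0.0551), with a mean of 0.0290 ± 0.0105. Zeb1 exceeded Zeb2 53.1-fold in A (30.0 to 104) and 37.3-fold in B (24.3 to 60.1). Their antisense neighbours held few counts. Zeb2os, which shares 653 exonic bases with Zeb2, had 0 in both, and Gm10125, which shares 198 with Zeb1, had 2 and 6.

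Of the Snail genes, Snai1 stood near Zeb1 in level and Snai2 was lower. Snai1 (ENSMUSG00000042821, chromosome 2, 167538195 to 167542814, plus strand) had 85 counts in A and 64 in B, or 1.88 and 1.30 RPKM (1.59 ± 0.410, percentile 54.8). Snai2 (ENSMUSG00000022676, chromosome 16, 14705852 to 14709385, plus strand), also called Slug, had 9 and 15 counts, or 0.160 RPKM (0.0731 to 0.303) and 0.245 RPKM (0.137 to 0.404), with a mean of 0.202 ± 0.0601. Snai1 exceeded Snai2 11.8-fold in A (5.92 to 26.6) and 5.32-fold in B (3.0 to 10.1). In the order of all 10 genes by mean RPKM, the ranges of A and B overlapped between Snai1 and Zeb1 and between Snai2 and Cdh2, and between no other neighbours. By the longest transcript Zeb1, at 2.21 RPKM, came before Snai1, and Cdh2, at 0.224 RPKM, came before Snai2, at 0.202.

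Zeb and Snail proteins bind the E-boxes CACCTG and CAGGTG, which are the same site read on opposite strands. RefSeq promoter windows, from 250 bases before to 50 after a start site, were searched for 4 of the 10 genes (7 windows). The rest were not searched, among them Cdh1, Esrp1, Esrp2 and Snai2, for which no window was at hand. Epcam and Snai1 held the site, and Vim and the 4 windows of Zeb2, some of which overlap, did not. Of all 32851 mouse promoter windows 20.2% hold it. The 250 bases upstream are given for the 2 genes with the site, 5′ to 3′ on the plus strand of GRCm38.p6, with the E-boxes in capitals. The E-boxes start 187 and 19 bases before the start site of Epcam and 126 bases before that of Snai1.
Epcam, chr17:87635729-87635978: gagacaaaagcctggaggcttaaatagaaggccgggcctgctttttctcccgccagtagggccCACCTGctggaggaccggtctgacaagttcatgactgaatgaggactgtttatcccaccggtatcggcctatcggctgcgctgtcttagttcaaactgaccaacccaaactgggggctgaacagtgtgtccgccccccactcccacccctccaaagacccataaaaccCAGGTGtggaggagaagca
Snai1, chr2:167537945-167538194: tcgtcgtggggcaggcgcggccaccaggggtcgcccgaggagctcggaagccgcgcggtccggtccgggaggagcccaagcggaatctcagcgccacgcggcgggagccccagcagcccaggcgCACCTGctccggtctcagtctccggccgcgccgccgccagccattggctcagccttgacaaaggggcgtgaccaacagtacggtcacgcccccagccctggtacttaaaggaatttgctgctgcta
These data hold no measure of binding at either promoter.

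The 2 libraries were then set against each other to give the error of these levels. The counts of each gene were compared by an exact binomial test (two-sided, library sizes scaled by TMM, p-values adjusted by Benjamini-Hochberg over the 14583 genes with at least 1 CPM in A or B), which called a difference for 7 of the 8 genes of the set that were tested. In the background 76.8% of all tested genes were called, 38.4% higher in B and 38.4% higher in A, so a call is the rule here and says nothing particular of these genes. The test covers counting error only and compares the libraries, not conditions. Cdh1, Epcam, Vim, Esrp1 and Zeb1 were higher in B and Esrp2 in A. The signs of Vim, Zeb1 and Esrp2 turned with the correction for GC content and length given further on. Cdh2 is counted among the 7 as higher in B, but it reached 1 CPM only there (0.718 CPM in A, 1.45 in B). The filter thus partly fixed its direction. Snai1 did not pass (log2 ratio of B over A -0.37, adjusted p = 0.0895 by the binomial test).

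The differences were small for all but Cdh2. Taken between values of log2(CPM + 0.5) with TMM scaling, the log2 ratio of B over A was 0.29 for Cdh1 (1.22-fold, adjusted p = 5.4e-58), 0.10 for Epcam (adjusted p = 0.0036) and 0.14 for Vim (adjusted p = 2.7e-06). It was 0.19 for Esrp1 (adjusted p = 0.0087), -0.27 for Esrp2 (adjusted p = 0.012) and 0.32 for Zeb1 (adjusted p = 0.0025). Over the 9537 genes at a mean of 10 CPM or more the log2 ratio had an SD of 0.61, so these 6 ratios lay well within the usual spread between the libraries. Cdh2 differed most, by 0.74 (1.67-fold on this scale, adjusted p = 0.0056). The 0.5 CPM added shrinks its ratio, as its level was 0.718 CPM in A and 1.45 in B. Cdh2 was the 1 gene of the set called and at least 1.5-fold apart, against 37.9% of all tested genes. It passed the filter only through B, where it is high, so the filter partly fixed its direction. Snai2 and Zeb2 were under 1 CPM in both libraries and were not tested. Without the filter neither passed (adjusted p = 0.46 for Snai2 and 0.21 for Zeb2 by the same binomial test).

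**Figure D4:**
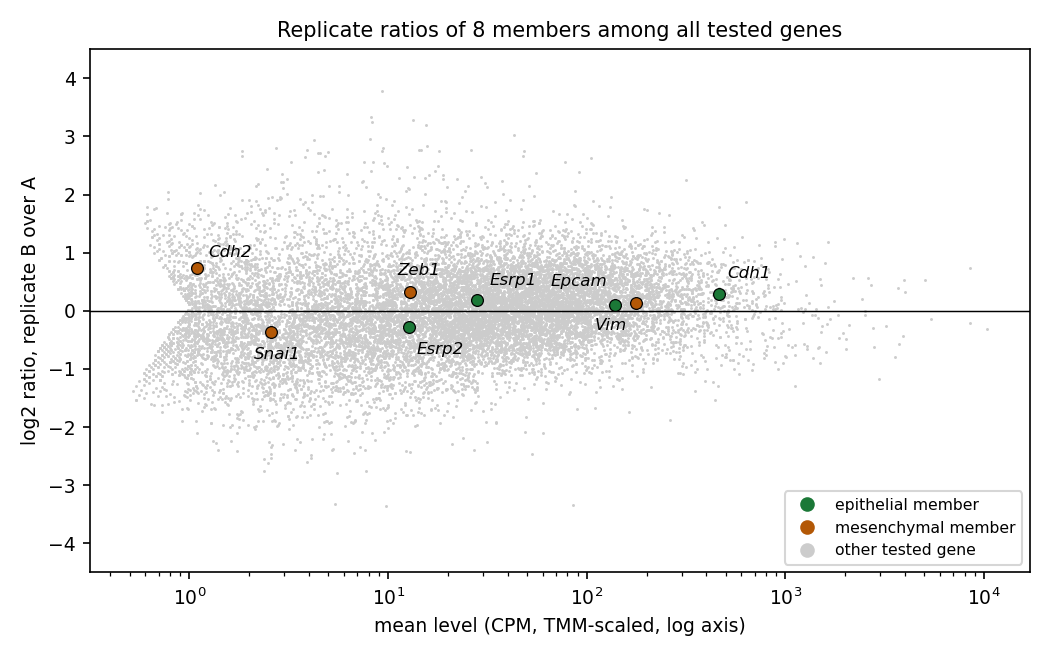
Log2 ratio of replicate B over A against mean TMM-scaled CPM (log axis) for the 14583 tested genes (grey), with the 8 tested genes of the set in colour. The ratios of 7 of them lie between -0.37 and 0.32, and Cdh2, the lowest in level, lies at 0.74.

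The calls depended on a joint correction for GC content and transcript length. After the median log2 ratio of protein-coding genes of like GC content and transcript length was taken off, 2 of the 8 genes were still called, against 70.6% of all tested genes (36.7% higher in B and 33.9% higher in A). They were Cdh1 (0.07) and Epcam (0.46), both higher in B. Esrp2, Vim, Zeb1 and Snai1 changed sign and were not called. The direction of those 4 between the libraries thus depends on the correction. Of the genes called before it, Esrp1 and Cdh2 kept their sign and lost the call. With library totals in place of TMM, 5 of the 8 were called, against 77.4% of all tested genes (33.3% higher in B and 44.1% higher in A).

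Most junction genes were expressed, among them all listed genes of proteins that join cadherins to the cytoskeleton. For scale, 55.6% of all protein-coding genes reached 1 CPM in both libraries. Those that did had a median of 6.39 RPKM in A and 6.22 in B. All 11 adherens junction partners passed 1 CPM in each library, and their median was 9.01 RPKM in A and 12.9 in B. Ctnnb1 (beta-catenin) had 129 and 176 RPKM, Ctnna1 (alpha-catenin) 69.4 and 89.3, and Nectin2, an adhesion receptor of the same junctions, 49.6 and 35.2. Of the tight junction genes 12 of 13 reached 1 CPM in both, with medians of 8.13 and 3.84 RPKM. The claudin genes Cldn4 and Cldn6 had 78.4 and 52.1 RPKM and 40.6 and 22.3 RPKM, and Cldn1 had 4 and 5 counts. All 10 desmosome and keratin genes passed 1 CPM in both, with medians of 5.96 and 5.17 RPKM. The simple-epithelium keratins Krt18 (33.2 and 14.1 RPKM) and Krt8 (21.0 and 14.4) led, followed by Perp (19.1 and 14.9), a desmosome-associated gene.

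Regulators of the epithelial state were present as well. Of 18 such genes 17 passed 1 CPM in each library, against 55.6% of protein-coding genes. The list median was 8.64 RPKM in A and 6.99 in B. The protease inhibitor genes Spint1 (48.8 and 42.7 RPKM) and Spint2 (36.2 and 28.0) and the transcription factor gene Klf4 (52.3 and 35.0), which is also a pluripotency factor, were highest. Grhl2, which activates Cdh1 and was picked on its values, had 4.53 RPKM in A and 13.6 in B.

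Other factors and effectors of the mesenchymal state were uneven, with list medians below those of the epithelial and junction lists. Of all protein-coding genes 55.6% reached 1 CPM in both libraries. Of 12 other factors linked to the transition 6 passed 1 CPM in each library, and their median was 0.711 RPKM in A and 0.751 in B. The E-protein gene Tcf3 (36.4 and 24.4 RPKM), Klf8 (3.38 and 7.83) and Snai3 (2.95 and 5.69) led, while Twist2 had 0 counts in both and Foxc1 had 1 and 2. Twist1, picked on its values, had 1.72 and 1.84 RPKM. Of 20 mesenchymal effector genes 15 passed 1 CPM in each library, and their median was 1.80 RPKM in A and 1.24 in B. Like Vim, 3 matrix or adhesion genes stood far above Esrp1 and Esrp2. They were Fn1 (fibronectin, 75.5 and 72.5 RPKM), Sparc (66.3 and 65.6) and the fibronectin receptor gene Itga5 (53.5 and 48.7). Fn1 and Sparc also lay above Epcam (63.3 and 63.5 RPKM), and all 3 lay below Cdh1. S100a4 had 4 and 1 counts.

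**Figure D5:**
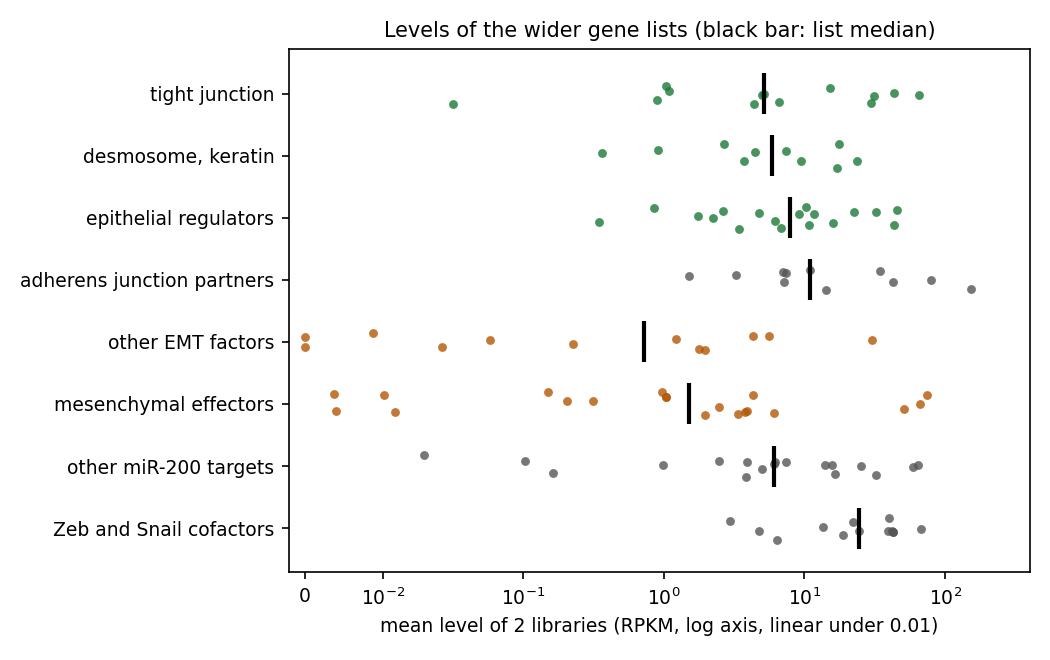
Mean level over both libraries (RPKM, log axis, linear under 0.01) of each gene of 8 further lists, with list medians as black bars. The epithelial and junction lists have medians of 5.19 to 10.9 RPKM, and the other transition factors 0.720.

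Between the libraries, called tight junction genes were higher in A in 8 cases and in B in 2, out of 12 tested, against 38.4% of all tested genes in each direction. The split was 7 against 2 of 10 for desmosome and keratin genes and 12 against 3 of 17 for epithelial regulators, with A first. Their median log2 ratios of B over A were -0.53, -0.45 and -0.28, beside -0.01 over all tested genes. Krt7 (11.1 and 1.81 CPM), also a trophoblast gene, and Cldn3 (10.4 and 2.64 CPM), chosen after their values were seen, differed most among the first pair of lists. Adherens junction genes went the other way, with 3 higher in A and 7 in B of 11 tested (median 0.45). After the correction for GC content and length, tight junction calls were 4 in A and 2 in B, beside 33.9% and 36.7% of all tested genes. Desmosome and keratin calls were then 6 in A and 1 in B, and epithelial regulator calls 10 and 3. Adherens junction calls were 2 in A and 8 in B. With library totals in place of TMM the 4 lists had, in this order, 8 and 2, 7 and 2, 12 and 2, and 3 and 7. All tested genes then had 44.1% higher in A and 33.3% higher in B. Summed trophoblast markers were higher in A and summed endoderm markers higher in B, as given above, and their part in these splits was not tested.

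Mesenchymal effectors were called higher in A in 8 cases and in B in 4, of 15 tested (median -0.34), against 38.4% of all tested genes in each direction. With library totals in place of TMM they were 11 and 1, against 44.1% higher in A and 33.3% higher in B. After the correction for GC content and length they were 9 and 2, against 33.9% in A and 36.7% in B. Of 6 other transition factors tested, 2 were higher in A and 3 in B (median 0.38). These counts were 2 and 3 with library totals and 1 and 3 after the correction. Among the 20 further cadherins 8 were tested, but Cdh10, Cdh13, Cdh15, Cdh18 and Cdh22 reached 1 CPM only in the library where they are high, so no split is given. Cdh22, picked on its values, had 57 counts in A and 5 in B.

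Genes that work with the Zeb and Snail factors were expressed throughout. All 13 cofactor genes and regulators of Snail stability reached 1 CPM in both libraries, against 55.6% of protein-coding genes. Their medians were 25.4 RPKM in A and 23.1 in B. The histone demethylase gene Kdm1a (68.8 and 66.0 RPKM), the Zeb corepressor gene Ctbp2 (33.6 and 52.3) and Sin3a (37.1 and 47.8) led. Calls were 2 higher in A and 8 in B of 13 tested (median 0.39), against 38.4% of all tested genes in each direction. With library totals they were 5 and 8, against 44.1% in A and 33.3% in B. With the correction for GC content and length they were 1 and 8, against 33.9% and 36.7%. Of 18 genes reported as miR-200 targets besides the Zeb genes, 16 reached 1 CPM in both, against the same 55.6%. Their medians were 6.38 RPKM in A and 5.79 in B. The highest were Crtap (77.0 and 52.3 RPKM), which acts in collagen modification, the Polycomb gene Suz12 (48.4 and 70.7) and the neuronal tubulin gene Tubb3 (40.0 and 24.3), and Zfpm2 had 5 and 6 counts. Of 17 tested, 3 were higher in A and 7 in B (median 0.12), against the same 38.4% in each direction, and Flt1 passed the filter only through B, where it is high. After the correction for GC content and length they were 6 and 7, against 33.9% in A and 36.7% in B. With library totals they were 5 and 6, against 44.1% and 33.3%. Without wild-type libraries these levels do not tell whether loss of miR-200 raised any of them.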

How the data were processed

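Trizol-extracted total RNA was made into reverse-stranded libraries with a TruSeq kit, per the labels' protocols. The deposited files hold raw, unnormalized counts, as whole numbers for each Ensembl gene, with 1 file per library. Of tools, STAR 2.4.2a and featureCounts 1.4.5-p1 are named in the submitters' processing notes, and mm10 as the build. Annotation release and strand setting: not given in the sources used here. Names, positions and exon lengths came from GENCODE M21 (GRCm38, the assembly of mm10), which matched 42548 of 43629 identifiers with 99.8% of the counts of each library.

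CPM used library totals and RPKM merged exon lengths, both computed here. Intervals are exact 95% Poisson limits for counts and exact binomial limits for ratios, and they and the floors of 3 counts cover counting error only. The exact binomial test used TMM sizes (edgeR 4.0.16 in R 4.3.3, factors 1.03 for A and 0.968 for B), scipy 1.17.1 and an adjusted p threshold of 0.05. It was tried on simulated Poisson counts, which hold counting error only and no further variation between libraries. Library sizes from DESeq2 1.42.0, library totals, other filters, lengths and pseudocounts, Fisher's test and a GC and length correction in 10 by 3 bins were tried as alternatives.

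Named genes are all 10 of the set and, per further list, the 3 of highest mean RPKM among those at 1 CPM in both libraries and up to 2 under 1 CPM. Of the genes so named, 2 are not reported here. The genes and lists were chosen with earlier results of these data known.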

Additional observations from a re-analysis of the deposited data

How the results depend on the processing

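The difference of the epithelial and mesenchymal medians was 4.76 on the log2 scale over both libraries and 4.64 to 4.87 when either replicate was left out. It was 4.94 with the longest transcript, 5.18 by CPM without length, 5.05 with a pseudocount of 0.01, 3.52 with one of 1, and 2.42 with the wider lists. With the longest transcript, the log2 ratio of Cdh1 over Cdh2 was 8.94 in place of 9.63, that of Epcam over Vim 0.17 in place of 0.76, and that of Esrp1 over Esrp2 1.03 in place of 0.61. After the GC and length correction 2 genes of the set were called between the libraries in place of 7, against 70.6% of all tested genes in place of 76.8%, and the log2 ratio of B over A became 0.12 for Esrp2, -0.0034 for Vim, -0.17 for Zeb1 and 0.30 for Snai1. The cause was not tested. With library totals or Fisher's test 5 of the set (and, with library totals, 77.4% of all tested genes) were called, as Epcam, Esrp1 and Vim lost the call and Snai1 gained it, and the median log2 ratio of all tested genes was -0.10 in place of -0.01. Other filters and DESeq2 size factors left 7 called. With 12 counts or fewer in 1 library, the levels of Zeb2 and Snai2 are limited by depth. No paired analysis was possible because the series holds 1 group.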
